A study of Mus musculus with 16 samples.

Results

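Genes of sphingosine-1-phosphate (S1P) signalling were followed through mouse myeloid sarcoma and leukaemic bone marrow. They were the 5 receptor genes S1pr1, S1pr2, S1pr3, S1pr4 and S1pr5, and the 3 enzyme genes Sphk1, Sphk2 and Sgpl1. These 8 of the 23999 symbols in the count table were chosen because S1pr3 was high in the sarcoma of mouse 841. The values of that tumour beside the other sarcomas therefore describe how the genes were selected and received no test. All 8 genes passed the count filter of the comparison between tissues, in which mouse 841 took no part.

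S1P is a lipid made inside cells by phosphorylation of sphingosine and released into blood and lymph, where its concentration is higher than in most tissues. Its receptors are G-protein-coupled receptors on the cell surface, and blood cells that carry them can follow the S1P gradient out of lymphoid organs and marrow. The kinases Sphk1 and Sphk2 make the lipid, the lyase Sgpl1 degrades it irreversibly, and lipid phosphatases turn it back into sphingosine.

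Poly(A) RNA was sequenced from 16 libraries of mice that all carried NPM1cA, a mutant nucleophosmin allele of acute myeloid leukaemia. The sarcoma of mouse 841 is labelled NPM1cA alone and is described in the series text as wild type for SMC3, a cohesin subunit gene. The other sarcomas came from 4 NPM1cA/SMC3+/- mice (6 libraries), and the marrows came from 9 NPM1cA/SMC3+/- mice. Mice 948 and 2721 gave 2 sarcoma libraries each, and mice 1267 and 1268_1270 gave 1 each. The pairs are titled Rep1 and Rep2 and are called tumours 1 and 2 here, though the titles do not say that the tumours were separate. Mice 1267 and 2721 gave both tissues, the label 1268_1270 was counted as 1 mouse although it may name a pool, and neither ages nor the promoter driving the alleles are given in the labels. Tumours were dissected and went straight into Trizol, whereas marrow was crushed, filtered and cleared of red cells first, so tissue and handling cannot be told apart. The single tumour without the SMC3 change likewise describes mouse 841 and not its genotype.

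Total counts were 9797201 in the tumour of mouse 841, 12072482 to 33605464 in the SMC3+/- sarcoma libraries and 12395041 to 39197660 in the marrow libraries. Smc3 itself was at 142 CPM, the counts scaled to the library total, in mouse 841 and at 63.3 to 216 CPM in the SMC3+/- sarcomas. In marrow it was at 3.50 to 8.09 CPM in mice 737, 779 and 782 and at 133 to 237 CPM in the other marrows. In those 3 marrow libraries transcripts longer than 6000 bases were low, with median log2 deviations of -2.13, -2.13 and -2.01 from the median library, against -0.73 to 0.42 in the rest. The sarcoma of 1268_1270 stood apart by its markers, with summed adipocyte markers at 39962 CPM and summed pan-leukocyte markers at 594 CPM. The other SMC3+/- sarcoma libraries had adipocyte sums of 36.4 to 989 CPM and pan-leukocyte sums of 5206 to 11498 CPM. Immature myeloid markers, which mark the leukaemic lineage, summed to 12248 CPM in mouse 841, to 350 CPM in 1268_1270 and to 2398 to 32031 CPM in the other SMC3+/- sarcoma libraries. In the tissue comparison, results without some of these libraries are also given for S1pr1, S1pr4, Ormdl3 and the called pathway genes. For the other genes they are not given one by one.

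The promoters of the 3 genes that put mouse 841 outside the other sarcomas are printed first, because they differ in base composition. Each is the 250 bases before the annotated start in RefSeq (build GRCm38.p6), 5′ to 3′ on the gene's strand, with every CG dinucleotide in capitals. Per the submitters' processing notes the reads were processed with mm9, so these positions belong to the reference and not to the count table.
S1pr3, chr13:51408368-51408617, plus strand: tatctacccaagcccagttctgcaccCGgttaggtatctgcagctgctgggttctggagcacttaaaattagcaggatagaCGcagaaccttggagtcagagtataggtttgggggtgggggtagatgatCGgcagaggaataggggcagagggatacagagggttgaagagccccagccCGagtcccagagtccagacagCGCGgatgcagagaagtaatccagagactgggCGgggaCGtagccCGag
Sgpl1, chr10:61147685-61147934, minus strand: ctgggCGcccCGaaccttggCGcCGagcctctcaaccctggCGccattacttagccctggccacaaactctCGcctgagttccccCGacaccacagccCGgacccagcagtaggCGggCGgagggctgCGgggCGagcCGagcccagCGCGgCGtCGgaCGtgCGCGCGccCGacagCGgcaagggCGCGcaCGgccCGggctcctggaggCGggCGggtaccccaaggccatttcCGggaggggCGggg
S1pr4, chr10:81500138-81500387, minus strand: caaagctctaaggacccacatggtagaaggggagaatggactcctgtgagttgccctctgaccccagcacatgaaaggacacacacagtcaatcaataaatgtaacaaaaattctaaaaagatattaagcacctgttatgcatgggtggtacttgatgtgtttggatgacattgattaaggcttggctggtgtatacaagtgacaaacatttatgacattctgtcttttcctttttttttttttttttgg
The S1pr3 window held 9 CG dinucleotides, the Sgpl1 window 31 and the S1pr4 window 0, against a median of 6 over 32851 mouse promoter windows of the same length. More CG dinucleotides than in Sgpl1 were found in 4.58% of those windows, and more than in S1pr3 in 37.8%. CG reads the same on both strands, so 1 search covers both. Of the 8 genes, 7 had a promoter entry. The counts describe these windows and say nothing about methylation or binding, which were not measured.

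In the comparison of sarcoma with marrow, none of the 8 genes passed the threshold. Levels are CPM on library totals scaled by TMM, the trimmed-mean scaling of edgeR, and a mouse with 2 tumours enters a group mean with the mean of both. With 4 SMC3+/- sarcoma mice against 9 SMC3+/- marrow mice, edgeR's quasi-likelihood test called 0 of 8 genes higher and 0 of 8 lower at a Benjamini-Hochberg adjusted p under 0.05. Over all 14730 genes tested, 4.49% were called higher and 0.0543% lower. The ranges of the sarcoma and marrow mice overlapped for all 8 genes; over all genes, 4.11% lay wholly higher in sarcoma and 0.285% wholly lower. At an unadjusted p under 0.05 the same test gave 1 gene higher (S1pr1) and 1 lower (S1pr4), against 11.7% and 2.1% of all genes, and DESeq2 gave the same 2 genes at that level and 0 after adjustment. A p above the threshold does not show equal levels. In bulk tissue, fewer cells of a type and less RNA per cell cannot be told apart.

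**Figure D1:**
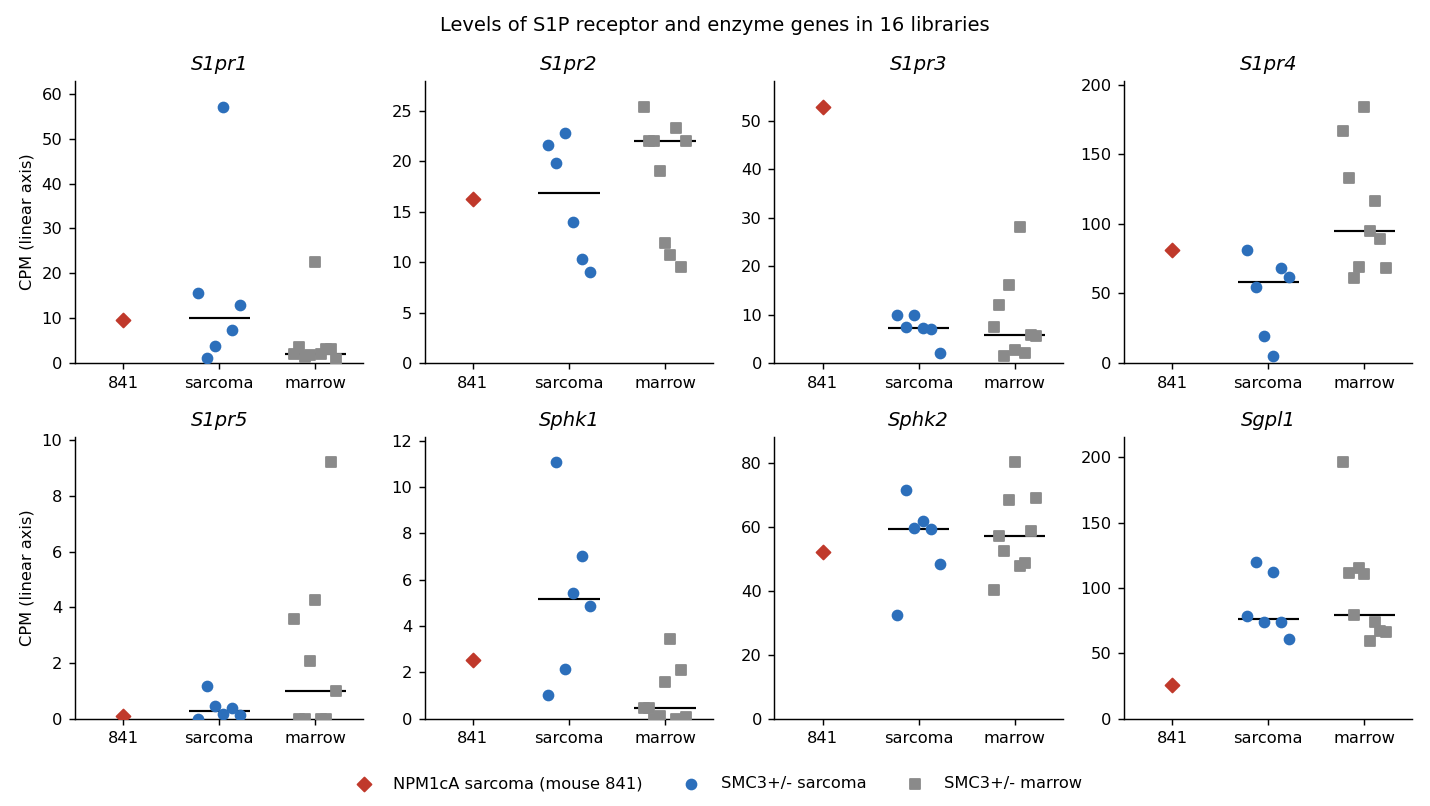
CPM (linear axis, own scale per gene) of the 8 genes in every library: the NPM1cA sarcoma of mouse 841 (red diamond), the 6 SMC3+/- sarcoma libraries (blue circles) and the 9 SMC3+/- marrow libraries (grey squares), with black lines at the library medians. Mouse 841 is the highest point for S1pr3, at 52.9 CPM, and the lowest for Sgpl1, at 25.9 CPM, while the sarcoma and marrow points overlap in every panel.

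S1pr4, a receptor found mainly on blood and lymphoid cells, was the most abundant receptor per length in 15 of the 16 libraries. It was at 81.5 CPM in mouse 841. In the SMC3+/- sarcomas it reached 81.4 and 54.9 CPM in tumours 1 and 2 of mouse 948, 19.3 CPM in mouse 1267, 5.33 CPM in 1268_1270 and 68.1 and 61.9 CPM in tumours 1 and 2 of mouse 2721. The 2 lowest values thus came from the sarcomas of mice 1268_1270 and 1267. The marrow libraries ran from 61.1 CPM in mouse 782 through a median of 94.9 to 184 CPM in mouse 949. S1pr4 averaged 39.4 ± 31.9 CPM in SMC3+/- sarcoma (SD, n = 4) and 109 ± 44.3 CPM in marrow (SD, n = 9). The log2 fold change of sarcoma over marrow was -1.61 ± 0.57 (SE), with an adjusted p of 0.16 in edgeR. In the mice with both tissues S1pr4 stood at 19.3 CPM in the sarcoma and 116 CPM in the marrow of mouse 1267, and at a mean of 65.0 CPM in the sarcomas and 89.0 CPM in the marrow of mouse 2721. Limma-voom, an alternative model, called it lower at -1.97 with an adjusted p of 0.048. The log2 value lay between -1.97 and -0.93 under the 27 alternative settings. The sarcoma lowest in S1pr4 was also the one lowest in pan-leukocyte markers, 1268_1270, and the part of that in the result was not tested. Without that sarcoma the log2 fold change was -1.25.

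S1pr1 is the receptor by which lymphocytes leave lymphoid organs, and it is abundant in endothelium. It was at 9.63 CPM in mouse 841. The SMC3+/- sarcomas had 15.6 and 1.18 CPM in tumours 1 and 2 of mouse 948, 3.90 CPM in mouse 1267, 57.2 CPM in 1268_1270 and 7.37 and 12.9 CPM in tumours 1 and 2 of mouse 2721. The tumours of mouse 948 differed by 3.48 on the log2 scale (after adding 0.25 CPM), the widest gap between them among the 8 genes. Marrow ranged from 0.987 CPM in mouse 3332 through a median of 2.12 to 22.6 CPM in mouse 949, and 8 of the 9 marrows were at or below 3.50 CPM. S1pr1 averaged 19.9 ± 25.0 CPM in SMC3+/- sarcoma (SD, n = 4) and 4.53 ± 6.82 CPM in marrow (SD, n = 9), for a log2 fold change of 2.10 ± 0.86 (SE) and an adjusted p of 0.256 in edgeR.

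The S1pr1 comparison depended on which libraries entered it. Without marrow 949 the log2 fold change was 3.14 with an adjusted p of 0.0155 in edgeR, and without the sarcoma of 1268_1270 it was 0.62. Without the 3 marrows low in long transcripts it was 1.70 (adjusted p = 0.415 in edgeR). Without those 3, mouse 948's tumour 1 and 1268_1270 it changed sign, to -0.29. Marrow 949 had the highest summed B cell markers (447 CPM, against 8.81 to 133 CPM in the other marrows) and T cell markers (77.7 CPM, against 5.43 to 36.6 CPM), with 0 of 5 and 0 of 6 markers undetected. The sarcoma of 1268_1270 had the highest summed endothelial markers of all libraries, 563 CPM, with 10 of 10 detected. The other SMC3+/- sarcomas held 105 to 267 CPM. Its sums were the highest too for adipocyte (39962 CPM), fibroblast (10864 CPM) and pericyte and smooth muscle markers (1480 CPM). In the other SMC3+/- sarcoma libraries these sums reached at most 989, 2654 and 298 CPM. The part of these cell types in the S1pr1 values was not tested.

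S1pr2, a receptor that restrains migration in several cell types, spanned a narrow range in all groups. It was at 16.3 CPM in mouse 841 and between 9.03 CPM (tumour 2 of mouse 2721) and 22.8 CPM (mouse 1267) in the SMC3+/- sarcoma libraries. Marrow ran from 9.46 CPM in mouse 2721 through a median of 21.9 to 25.4 CPM in mouse 737. Group means were 16.8 ± 6.06 CPM in SMC3+/- sarcoma (SD, n = 4) and 18.4 ± 6.05 CPM in marrow (SD, n = 9). The log2 fold change was -0.26 ± 0.36 (SE; adjusted p = 0.913 in edgeR). Within mouse 2721 the sarcomas averaged 9.67 CPM and the marrow 9.46 CPM, and within mouse 1267 the sarcoma held 22.8 CPM and the marrow 23.2 CPM. The annotated exons of S1pr2 span 6394 bases, and it read 25.4, 22.01 and 21.9 CPM in the 3 marrows short of long transcripts, at or above the marrow median. The part of transcript length in these values was not tested.

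S1pr3, the receptor the genes were selected on, is known from heart, vessel wall and stromal cells and couples to several G proteins. In mouse 841 it was at 52.9 CPM from 583 counts. The SMC3+/- sarcomas held 9.96 and 7.54 CPM in tumours 1 and 2 of mouse 948, 9.89 CPM in mouse 1267, 7.14 CPM in 1268_1270 and 6.96 and 2.00 CPM in tumours 1 and 2 of mouse 2721. All 6 libraries were thus below 10 CPM, with tumour 2 of mouse 2721 the lowest. Marrow spread more widely, from 1.41 CPM in mouse 782 through a median of 5.75 to 16.04 CPM in mouse 919 and 28.2 CPM in mouse 1103. Group means were 7.57 ± 2.35 CPM in SMC3+/- sarcoma (SD, n = 4) and 9.03 ± 8.64 CPM in marrow (SD, n = 9). The log2 fold change was -0.36 ± 0.71 (SE; adjusted p = 0.956 in edgeR), and it was above 0 under 4 of 27 alternative settings. It was 0.18 without marrow 1103, 0.67 and 0.71 in the fits with the mouse as a block and 1.57 under pan-leukocyte scaling, none of them called. In mouse 1267 the sarcoma, at 9.89 CPM, lay above the marrow, at 2.11 CPM, whereas in mouse 2721 the sarcomas averaged 4.48 CPM and the marrow 5.75 CPM.

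S1pr5, known from natural killer cells and oligodendrocytes, was low or undetected in the sarcomas and uneven in marrow. It had 1 count in mouse 841, or 0.0908 CPM, and 0 to 1.18 CPM in the SMC3+/- sarcoma libraries. Marrow ranged from 0 in mice 779, 782, 1103 and 1267 to 3.59 CPM in mouse 737, 4.25 CPM in mouse 949 and 9.21 CPM, from 253 counts, in mouse 2721. A count of 0 allows up to 3 counts, which is between 0.0951 and 0.276 CPM in those 4 libraries. The log2 fold change was -2.80 ± 1.85 (SE), with an adjusted p of 0.633 in edgeR, and the fitted value depends on the zeros. Natural killer markers summed to 0.0908 CPM in mouse 841, with 5 of 6 at 0, to 2.41 to 6.31 CPM in the SMC3+/- sarcomas and to 3.19 to 46.4 CPM in marrow. The highest marrow sums, 46.4 and 46.0 CPM, were those of mice 737 and 949, whereas marrow 2721, highest in S1pr5, had 8.12 CPM; their part was not tested.

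Per length, the receptor make-up of most libraries was dominated by S1pr4. Each receptor's CPM was divided by its exon length in the GENCODE annotation of GRCm38 (matched by symbol) and given as a share of the 5 receptors' sum. S1pr4 made up 66.0% in mouse 841, 52.8% to 83.3% in 5 of the 6 SMC3+/- sarcoma libraries and 78.4% to 90.4% in marrow. The exception was 1268_1270, where S1pr4 made up 8.99% and S1pr1 75.5%. S1pr3 supplied 22.9% of the receptor sum in mouse 841, which is the largest S1pr3 share of the 16 libraries. The next S1pr3 shares were 14.5% in the sarcoma of mouse 1267 and 13.04% in the marrow of mouse 1103, and the marrow median was 2.88%.

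Counting error in the shares of a library was small. Without division by length, S1pr3 took 583 of the 1766 receptor counts in mouse 841, or 33.0% (95% exact Clopper-Pearson interval 30.8% to 35.3%). S1pr1 took 1265 of 1853 in 1268_1270, or 68.3% (66.1% to 70.4%). The counts carry no molecular identifiers, so these intervals cover counting error only. S1pr3 in mouse 841 is the value the genes were chosen on, so its interval describes that library and tests no difference.

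**Figure D2:**
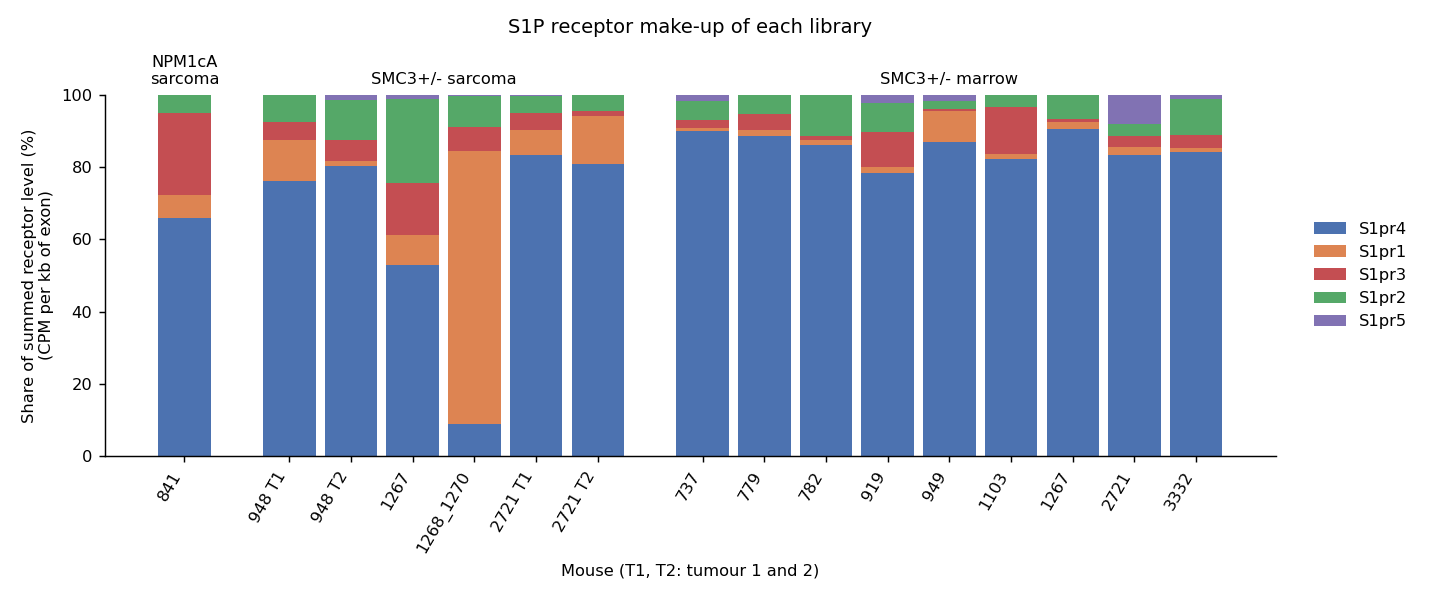
Share (percent) of each receptor in the summed receptor level per kilobase of exon, 1 bar per library, with the NPM1cA sarcoma of mouse 841 at the left, then the SMC3+/- sarcomas and the SMC3+/- marrows (T1 and T2 are tumours 1 and 2). S1pr4 forms the largest block everywhere except in 1268_1270, where S1pr1 holds 75.5%; the S1pr3 block is widest in mouse 841, at 22.9%.

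Of the enzymes, Sphk2 was much more abundant than Sphk1 in all libraries. Sphk2, the kinase found largely in the nucleus and at internal membranes, was at 52.1 CPM in mouse 841, 32.5 to 71.5 CPM in the SMC3+/- sarcoma libraries (both extremes in mouse 948) and 40.1 to 80.1 CPM in marrow. Means were 56.7 ± 4.59 CPM in SMC3+/- sarcoma (SD, n = 4) and 58.0 ± 12.5 CPM in marrow (SD, n = 9), with a log2 fold change of -0.16 ± 0.24 (SE; adjusted p = 0.929 in edgeR). On GRCm38 the exons of Sphk2 share up to 539 bases with those of Rpl18 and Dbp on the opposite strand. Rpl18, a ribosomal protein gene, ran at 212 to 2731 CPM, and the strand setting of the counting is not given in the sources used here, so the Sphk2 counts are uncertain.

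Sphk1, the inducible cytoplasmic kinase, was low throughout. It was at 2.54 CPM in mouse 841. The SMC3+/- sarcomas had 1.03 and 11.1 CPM in tumours 1 and 2 of mouse 948, 2.15 CPM in mouse 1267, 5.42 CPM in 1268_1270 and 7.01 and 4.88 CPM in tumours 1 and 2 of mouse 2721. Marrow ran from 0 in mice 782 and 1267 through a median of 0.461 to 3.46 CPM in mouse 1103. Most sarcomas thus lay above most marrows, with marrows 1103, 2721 and 949 in the overlap. Means were 4.89 ± 1.85 CPM in SMC3+/- sarcoma (SD, n = 4) and 0.921 ± 1.21 CPM in marrow (SD, n = 9). The log2 fold change was 2.21 ± 1.21 (SE; adjusted p = 0.498 in edgeR), while limma-voom called the gene higher, at 3.65 with an adjusted p of 0.0452.

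Sgpl1, the lyase that ends S1P signalling by cleaving the lipid, was at 25.9 CPM in mouse 841. The SMC3+/- sarcomas had 78.6 and 120 CPM in tumours 1 and 2 of mouse 948, 73.9 CPM in mouse 1267, 113 CPM in 1268_1270 and 73.6 and 61.2 CPM in tumours 1 and 2 of mouse 2721. Marrow ranged from 59.6 CPM in mouse 1103 through a median of 79.2 to 196 CPM in mouse 737. SMC3+/- sarcoma averaged 88.3 ± 21.2 CPM (SD, n = 4) and marrow 97.8 ± 42.9 CPM (SD, n = 9), with a log2 fold change of -0.25 ± 0.33 (SE; adjusted p = 0.9 in edgeR). In the mice with both tissues the values were nearly equal, at 73.9 CPM in the sarcoma and 73.8 CPM in the marrow of mouse 1267, and at 67.4 CPM in the sarcomas and 67.1 CPM in the marrow of mouse 2721. The ratio of Sgpl1 to Sphk2 per kilobase was 0.50 in mouse 841 and 1.25 to 2.43 in the SMC3+/- sarcoma libraries. It was 4.92 in marrow 737 and 0.97 to 1.96 in the other marrows. Of the marrows low in long transcripts, 737 thus stood apart, whereas 779 was at 1.96 and 782 at 1.52. This comparison within each library does not depend on scaling, but it carries the uncertainty of the Sphk2 counts.

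Ordered by median CPM per kilobase of exon, the SMC3+/- sarcomas ran Sgpl1 (21.0), S1pr4 (17.7), Sphk2 (13.6), S1pr1 (3.04), S1pr2 (2.70), S1pr3 (1.78), Sphk1 (1.46) and S1pr5 (0.143). Every neighbouring pair in that order overlapped between mice except Sphk1 and S1pr5. Marrow ran S1pr4 (39.8), Sgpl1 (19.2), Sphk2 (13.7), S1pr2 (3.43), S1pr3 (1.29), S1pr1 (0.697), S1pr5 (0.395) and Sphk1 (0.119), again as median CPM per kilobase. There only Sphk2 and S1pr2 were separated without overlap. In mouse 841 the levels per kilobase were 34.1 for S1pr4, 12.5 for Sphk2, 11.9 for S1pr3 and 6.26 for Sgpl1, so S1pr3 stood above Sgpl1 there, opposite to the order of medians in both other groups.

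Set beside the 4 SMC3+/- sarcoma mice, the tumour of mouse 841 lay above their range for S1pr3 and S1pr4, below it for Sgpl1 and inside it for S1pr1, S1pr2, Sphk1 and Sphk2. This is the contrast the genes were chosen on, and 1 tumour allows no estimate of spread. On the log2 CPM scale with a prior count of 2, the difference from the mean of the 4 mice was 2.85 for S1pr3 (SD among the 4 mice 0.47), 1.64 for S1pr4 (SD 1.69) and -1.72 for Sgpl1 (SD 0.36). It was -0.77 for Sphk1, -0.32 for S1pr1, -0.10 for Sphk2 and 0.04 for S1pr2, and S1pr5 did not pass the filter among sarcomas. Of the 12836 genes with a value, 10.4% lay above the range of the 4 mice and 17.3% below it. S1pr3 was the highest and Sgpl1 the lowest of all 16 libraries in mouse 841, as were 3.51% and 0.98% of 18570 genes. S1pr4 was above the means of the mice but close, at 81.5 CPM, to the 81.4 CPM of tumour 1 of mouse 948.

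The place of S1pr3 depended on 1 scaling. With libraries scaled on pan-leukocyte genes it fell inside the range, a scaling that raises every level in 1268_1270, the sarcoma with few leukocyte counts. Under the other scalings and with each SMC3+/- sarcoma mouse left out it stayed above. Several marker sums of mouse 841 lay outside those of the SMC3+/- sarcoma libraries. Erythroid markers summed to 1309 CPM there, with 7 of 7 detected. The SMC3+/- sarcoma libraries had 51.6 to 743 CPM and the marrows 9.89 to 972 CPM. Sums were lower in mouse 841 for macrophage markers, at 545 CPM against 750 to 1443 CPM, for platelet and megakaryocyte markers, at 25.3 CPM against 42.7 to 113 CPM, for T cell markers, at 0.999 CPM against 2.39 to 34.4 CPM, and for NK cell markers, at 0.0908 CPM against 2.41 to 6.31 CPM. Of 9 pericyte and smooth muscle markers, 5 lay below the range of the 4 mice and 0 above it. Of 7 fibroblast markers, 3 lay below and 0 above. Over all genes with a value, 17.3% lay below and 10.4% above. The endothelial sum, 374 CPM with 10 of 10 markers detected, lay within the range of the SMC3+/- sarcoma libraries, 105 to 563 CPM. Pecam1 supplied 241 CPM of it, above the 29.1 to 149 CPM of the 4 mice. Of the 10 endothelial markers 2 lay above the range of the 4 mice (Pecam1 and Plvap) and 1 below (Kdr), which does not stand out from those shares. The median log2 difference of the 10 markers was -0.29. The sarcoma with 563 CPM of endothelial markers, 1268_1270, had 7.14 CPM of S1pr3. The part of these cells in the values of mouse 841 was not tested.

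**Figure D3:**
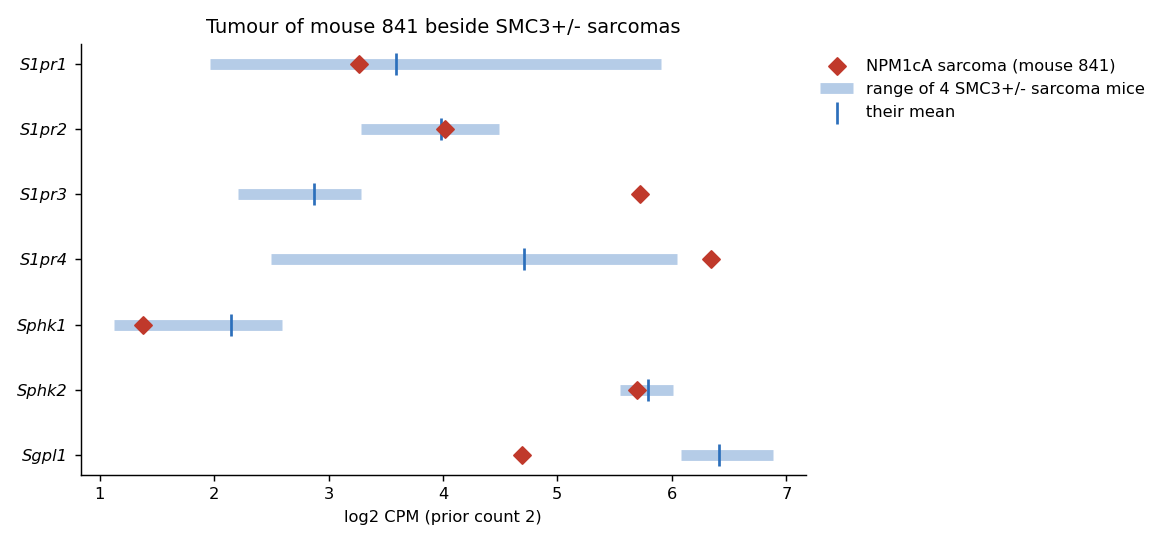
Log2 CPM (prior count 2) of 7 genes in the NPM1cA sarcoma of mouse 841 (red diamonds) beside the range (blue bars) and mean (blue ticks) of the 4 SMC3+/- sarcoma mice. The diamonds lie to the right of the bar for S1pr3 and S1pr4, to the left for Sgpl1 and within it for the other 4 genes.

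The wider S1P pathway showed few differences between the tissues, and those few were in lipid phosphatases and signal transducers. Of 8 genes for export, carriage and dephosphorylation 7 were tested, 2 rose and 0 fell, beside 4.49% and 0.0543% of all genes, with a median log2 fold change of 0.21 against 0.07 over all genes. Plpp3, a membrane phosphatase that dephosphorylates extracellular S1P (Ppap2b in the table), averaged 118 ± 206 CPM in SMC3+/- sarcoma (SD, n = 4) and 0.766 ± 0.863 CPM in marrow (SD, n = 9). Its range was 10.5 to 427 CPM in the sarcoma mice and 0 to 2.51 CPM in the marrow mice, without overlap, for a log2 fold change of 7.23 ± 1.22 (SE; adjusted p = 0.0033 in edgeR). The related phosphatase Plpp1 (Ppap2a) rose by 1.79 ± 0.45 on the log2 scale (SE; adjusted p = 0.0319), at 13.8 to 43.3 CPM in sarcoma and 3.50 to 11.8 CPM in marrow. The exporter Spns2, known from endothelium, was at 12.9 ± 8.47 CPM in SMC3+/- sarcoma and 10.7 ± 9.27 CPM in marrow (SD, n = 4 and 9) and was not called. In mouse 841 Spns2 was at 29.1 CPM, above the 4 SMC3+/- mice, and Plpp3 at 2.91 CPM, below them.

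Of 28 genes that supply ceramide and sphingosine 27 were tested and 0 were called in either direction by edgeR; 4 were higher and 0 lower at an unadjusted p under 0.05, close to the 11.7% and 2.1% over all genes. The median log2 fold change of the 27 was 0.05. The smallest adjusted p belonged to Ormdl3, an inhibitor of sphingolipid synthesis, with a log2 fold change of 2.68 ± 0.74 (SE; adjusted p = 0.0559), to the sphingomyelinase Smpd3 at 4.0 ± 1.35 (adjusted p = 0.134) and to the ceramidase Acer2 at 3.23 ± 1.13 (adjusted p = 0.15). Without the sarcoma of 1268_1270 Ormdl3 was at -0.10. In mouse 841, 2 of 25 such genes lay above the SMC3+/- sarcoma mice and 2 below, no more than the 10.4% and 17.3% over all genes.

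Among 17 signalling partners of the receptors, all tested, 2 rose and 0 fell, beside 4.49% and 0.0543% of all genes, with a median log2 fold change of -0.31. Gnai1, an inhibitory G protein subunit, held 0.586 to 597 CPM in the SMC3+/- sarcoma mice and 3 counts in total over the 9 marrows, 8 of which were at 0 (adjusted p = 0.00127 in edgeR). No fold is given against so few counts. Arhgef12, a guanine nucleotide exchange factor, rose by 3.28 ± 0.87 on the log2 scale (SE; adjusted p = 0.0436), at 12.8 to 286 CPM in sarcoma and 0.985 to 20.5 CPM in marrow. Gnai2, the main leukocyte form of that subunit, was at 755 ± 239 CPM in SMC3+/- sarcoma and 1198 ± 224 CPM in marrow (SD, n = 4 and 9), without overlap and with an adjusted p of 0.21.

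The sarcoma of 1268_1270 held the highest value of each of these 4 genes, and 3 of the calls were lost without it. Without it Plpp3 was at 4.17, Plpp1 at 1.19 and Arhgef12 at 1.01 on the log2 scale, and edgeR called none of these 3; Gnai1 kept its call there and lost it without marrow 919, which held all 3 marrow counts. Single marrows decided calls too. Plpp1 lost its call without marrow 737, 779 or 782 (adjusted p of 0.0511 to 0.0525 in edgeR), and Arhgef12 lost it without any 1 marrow other than 1103 (0.0523 to 0.0769). With the mouse as a block none of the 4 was called, and without the 3 marrows low in long transcripts Plpp1 and Arhgef12 were not. Markers of several cell types rose in sarcoma in the same test, beside 4.49% of all genes. They were 7 of 7 fibroblast, 5 of 5 tested adipocyte, 6 of 9 pericyte and 5 of 10 endothelial markers. Of the macrophage markers 4 of 7 rose, and of the skeletal muscle markers 3 of 5. Fibroblast markers summed to 422 to 10864 CPM in the SMC3+/- sarcoma libraries and to 0.492 to 37.3 CPM in marrow. The part of these cell types in the calls was not tested.

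**Figure D4:**
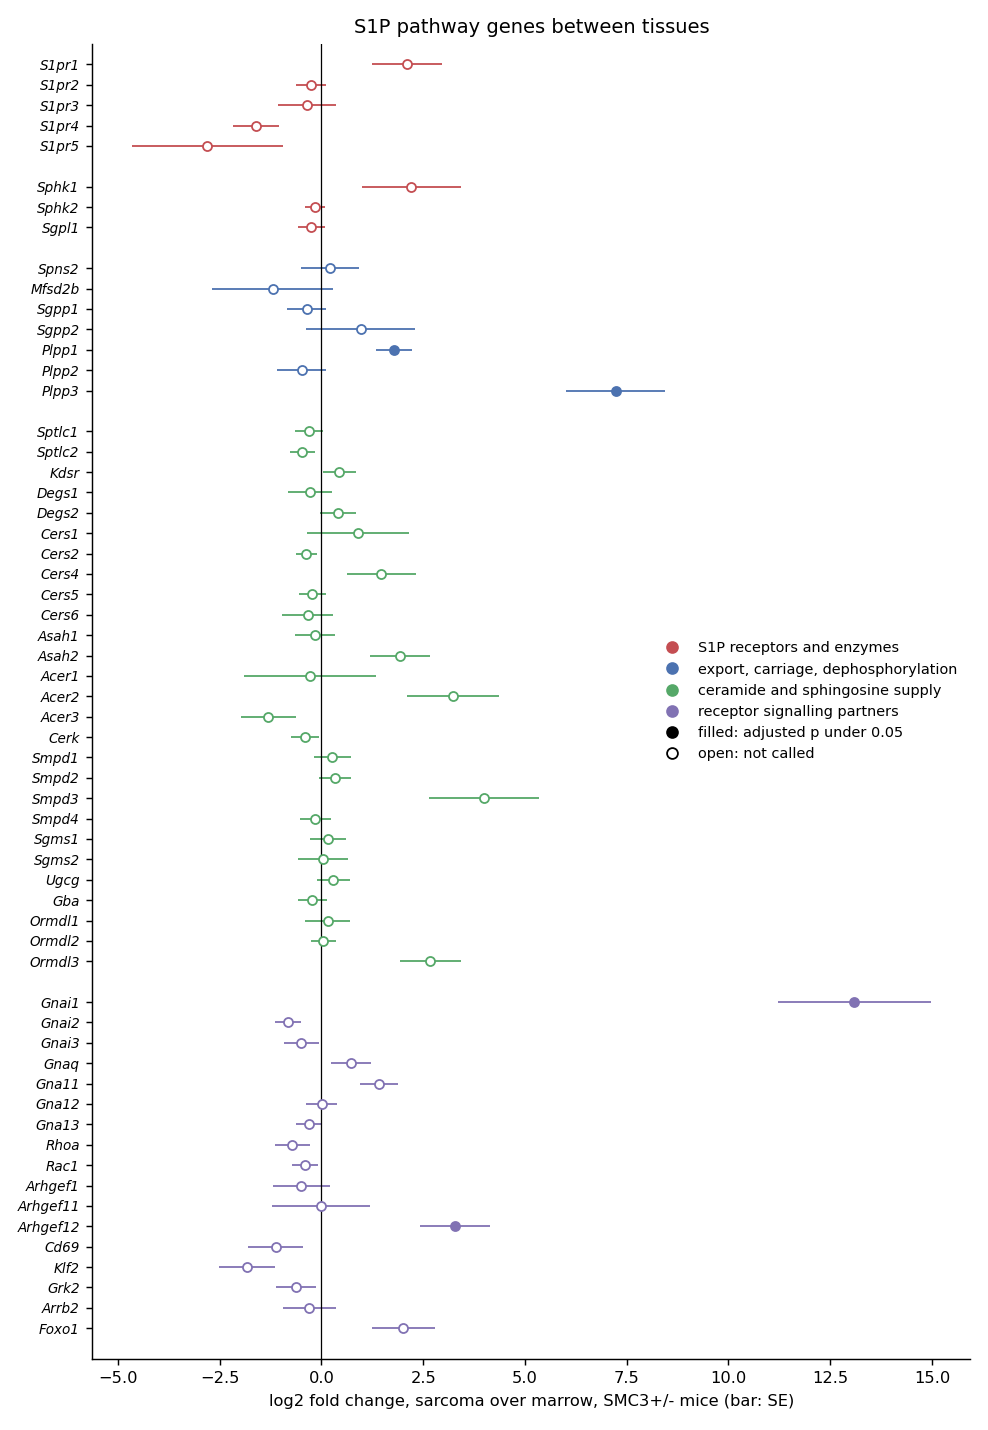
Log2 fold change of SMC3+/- sarcoma over SMC3+/- marrow (points, bars are SE) for the tested genes of the S1P pathway, coloured by list, with filled points for an adjusted p under 0.05 in edgeR. Filled points are Plpp1, Plpp3, Gnai1 and Arhgef12; all 8 receptor and enzyme genes are open, and the Gnai1 value rests on 3 marrow counts.

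Genes with the pattern most like that of S1pr3 were sought over the 14 samples of 1 mouse and tissue, as Pearson's r of log2 CPM among 12996 genes. The samples share tissue, and 2 mice occur in both tissues, so r is a description. The 5 highest were Clec2g (0.857), Awat2 (0.839), Foxf2 (0.827), Hps1 (0.814) and Hoxb5 (0.814). Awat2, an acyltransferase of wax ester synthesis, was at 21.98 CPM in mouse 841 and at no more than 1.03 CPM in any other library. Foxf2, a forkhead transcription factor, was at 18.4 CPM in mouse 841 and at most 1.57 CPM elsewhere. Hoxb5, a homeobox gene, was at 25.9 CPM in mouse 841 and 12.9 CPM in marrow 1103. Mouse 841, chosen for its high S1pr3, was among the 14 samples, so genes high in that tumour rank high by construction. As the only sample of its group, that tumour could also carry a gene through the count filter. It entered the mean level required of a gene as well. The 5 genes were picked with it, so their r without it tests nothing. Without mouse 841 r was 0.79 for Clec2g, 0.753 for Awat2, 0.723 for Foxf2 and 0.749 for Hoxb5. Hps1, a gene of lysosome-related organelles, kept 0.812. For Awat2 and Foxf2 these values rest on levels near the floor, at most 1.03 and 1.57 CPM. Clec2g was also low outside mouse 841. It was at 4.57 CPM in marrow 1103, at 3.77 CPM in tumour 2 of mouse 948 and at most 1.57 CPM in the other libraries. Hoxb5 was at 0 in marrows 737, 782, 949, 1267, 2721 and 3332.

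For S1pr1 the 5 highest were Sspn (0.904), Scd1 (0.894), Tmem140 (0.892), Rasl11a (0.886) and Cobl (0.882). Scd1 is a fatty acid desaturase abundant in fat, and Sspn a member of the dystrophin complex. All 5 peaked with S1pr1 in the sarcoma of 1268_1270, and without it their r was 0.805 to 0.830.

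**Figure D5:**
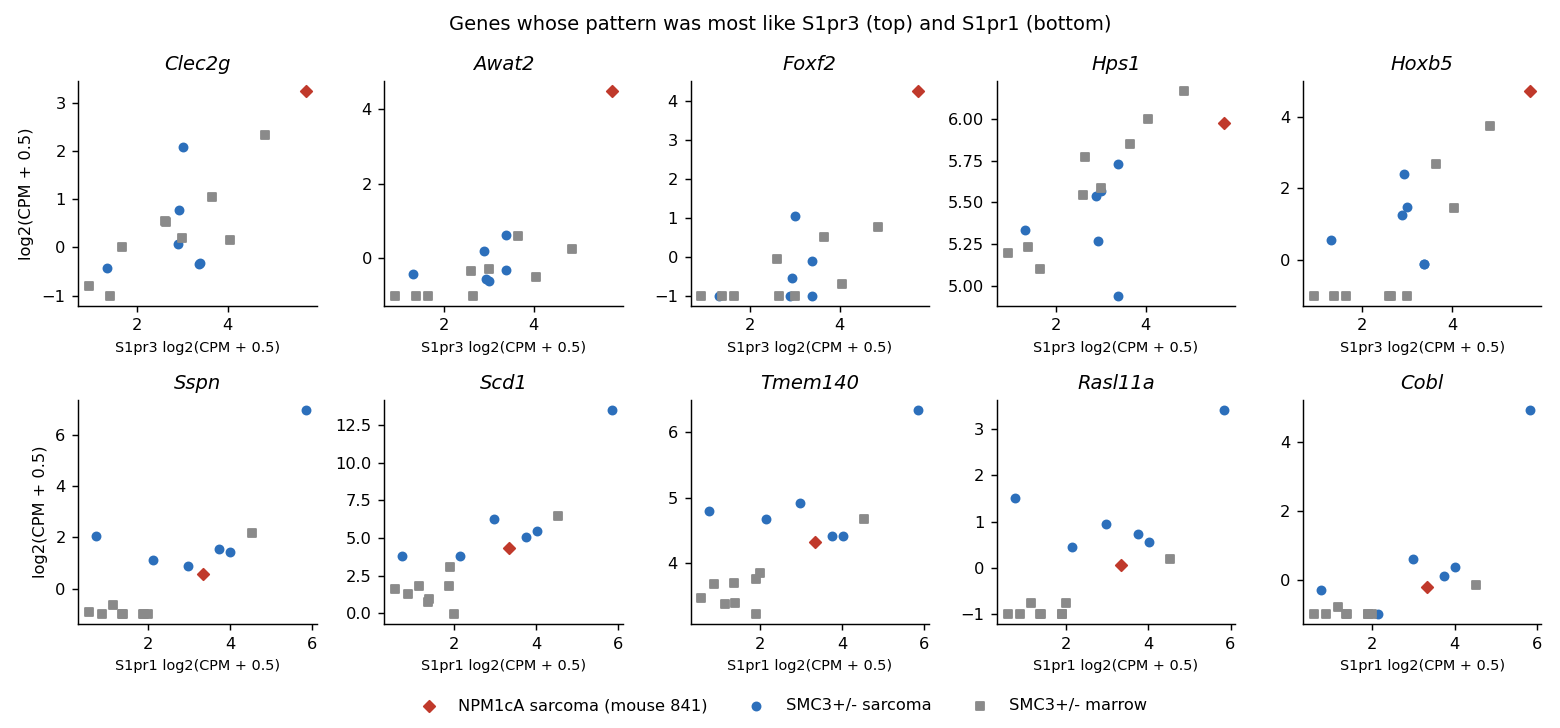
Log2(CPM + 0.5) of the 5 genes most like S1pr3 (top, against S1pr3) and the 5 most like S1pr1 (bottom, against S1pr1) in the 16 libraries, with the NPM1cA sarcoma of mouse 841 as a red diamond, SMC3+/- sarcomas as blue circles and marrows as grey squares. Mouse 841 is the point farthest right in the top row, and 1268_1270 the point farthest right in the bottom row.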

How the data were processed

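The authors deposited 1 table of raw counts per gene symbol, 23999 symbols by 16 libraries. STAR, DESeq, DESeq2 and mm9 are named per the submitters' processing notes, with no versions or roles; for annotation and strand setting the sources used here give nothing. Columns were mapped by name, and 0 belonged to other samples. The 8 genes, the other lists and the tests were chosen with earlier results of these data known.

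Libraries of 1 mouse and tissue were summed, giving 14 samples. Counts were scaled by TMM, filtered with filterByExpr and tested two-sided with edgeR 4.0.16 (glmQLFit, robust, glmQLFTest; R 4.3.3) over 14730 genes, with Benjamini-Hochberg adjustment at 0.05. SEs were back-calculated from each fold change and its F statistic. Printed levels are CPM; a prior count of 2 was used on the log2 scale. Pathway genes were named when called (up to 6 per list) and otherwise as the 3 with the smallest adjusted p; genes of like pattern were the 5 with the highest r at a mean log2 CPM of at least 0. Spns2 and Gnai2, and Plpp3 in mouse 841, were added after their values were seen. Exon lengths came from GENCODE M21 and promoters from RefSeq, both on GRCm38.

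Each mouse is 1 replicate, and the labels give no cultures or litters. Mice 1267 and 2721 gave both tissues, so the mouse pairs samples; their within-tissue deviations correlated at 0.367 and 0.277 over 10122 genes. No libraries matched within sampling noise. Alternatives were DESeq2 1.42.0, limma-voom (limma 3.58.1), other scalings and filters, tumours as units, the mouse as a block, and each mouse left out; removal of 3 marrow libraries, and of 4 libraries with 1268_1270, was added after seeing the data. The scripts were tested on simulated data.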

Additional observations from a re-analysis of the deposited data

Results flagged for a closer look

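S1pr1 in the marrow of mouse 949 stood apart from the other 8 SMC3+/- marrows. Its log2 level was 4.51, against 1.85 for the nearest marrow, and that gap took up 0.604 of the range of the 9 marrows, above the 95% critical value of 0.493 in Dixon's test. Among 16 groups tested, chance alone can flag a group or so. The same library had the highest B cell and T cell marker sums of the marrows, and their part in the value was not tested.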

How the results depend on the processing

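The tissue comparison called 0 of the 8 genes in the analysis reported, and the exceptions were few. Limma-voom called 1 higher (Sphk1) and 1 lower (S1pr4), and pan-leukocyte scaling called 4 higher. That scaling moved the median log2 fold change of all genes to 1.96, against 0.07, and called 7245 genes, 14 supply genes and 6 signalling partners higher; under it Sphk2 was at 2.03 and Sgpl1 at 1.99, both turned round in sign and within 0.1 of that shift. Leaving out each mouse in turn called 0 to 1 of the 8 genes higher (S1pr1 without marrow 949). It gave 170 to 762 genes higher and 0 to 16 lower, against 662 and 8 with every mouse, and the lowest of both came without 1268_1270. It also gave 0 to 2 export genes, 0 to 1 supply genes and 0 to 3 signalling partners higher.

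With the mouse as a block, paired through mice 1267 and 2721, 107 genes were higher and 23 lower over all mice, and 81 and 33 in those 2 mice alone. In both fits 0 export genes and 0 partners were higher, 1 partner was lower in the fit of 2 mice, and no call among the 8 genes changed. DESeq2 called 83 genes lower, with 1 export gene higher, 0 partners higher and 1 lower; it gave no p for Plpp3, Gnai1 and Arhgef12. Limma-voom called 20 genes lower and 1 partner higher, library totals 1 partner higher and the stricter filter 0. Without a filter 1355 genes were higher and 13 lower, with 1 supply gene higher. Tumour libraries as units gave 17 genes lower and 1 partner higher. A further setting removed 4 libraries, the 3 marrows low in long transcripts and tumour 1 of mouse 948. That tumour had a median log2 deviation of -0.54 for long transcripts, whereas marrow 1267, at -0.73, was lower and was kept. Without these 4 libraries 300 genes were higher and 3 lower, with 1 export gene and 1 partner higher. Without the 3 marrows alone 327 were higher, with 1 export gene and 1 partner. Without the 4 libraries and 1268_1270, 62 genes were higher and 0 lower, with 0 export genes and 0 partners. The causes were not tested.

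In mouse 841, S1pr4 stayed above and Sgpl1 below the SMC3+/- sarcoma mice under every setting tried for that comparison. S1pr3 differed by 2.17 under pan-leukocyte scaling, inside the range. S1pr1 lay above the range without 1268_1270, and Sphk1 below it without mouse 1267 or under pan-leukocyte scaling. Depth limits S1pr5 and Sphk1, which had few or 0 counts in several libraries.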
